A study of Mus musculus with 24 samples.

Results

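Most histone mRNA of a dividing cell comes from gene clusters, and this account covers every probe for those clustered genes on the mouse whole-genome arrays of the study. The members were the non-control probes whose gene name begins with Hist1h, Hist2h, Hist3h or Hist4h, which gave 52 probes of 48 gene names among 55681 probes. The rule used names and no measured value. By histone type they were 6 probes for the linker histone H1, 16 for H2A, 11 for H2B, 8 for H3 and 11 for H4. By cluster, 38 were Hist1 (chromosome 13), 10 Hist2 (chromosome 3), 3 Hist3 (chromosome 11) and 1 Hist4 (chromosome 6). The study measured spleen RNA of 2 mouse strains, BALB.K and B10.BR, 24 hours after total body irradiation with X-rays. BALB.K mice received 0, 300, 400 or 800 cGy and B10.BR mice 0, 300, 500 or 900 cGy, and the labels call 800 and 900 cGy myeloablative. Each of the 24 arrays held RNA pooled from 3 mice, with 3 arrays in each of the 8 groups, and the labels give no sex. Because the samples are whole spleen, fewer cells of a type and less RNA per cell cannot be told apart in any value below.

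Clustered histone genes are known as the replication-dependent histones. Their transcription rises as a cell enters S phase, driven through cyclin E and the coactivator NPAT, and their mRNAs end in a short stem-loop in place of a poly(A) tail. The stem-loop binding protein SLBP processes and stabilises them until DNA synthesis ends. Some clustered genes can also give longer mRNAs that run past the stem-loop and carry a poly(A) tail, which are known from cells that have left the cycle. The labelling kit named in the protocols is known as a method that primes on poly(A), so the mature stem-loop mRNAs are a form it may label poorly. That was not tested here. The spleen of the mouse holds dividing lymphocytes and erythroid precursors, both known as sensitive to radiation.

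Each probe is a run of 60 bases, and where it sits on the mRNA matters to the results below. A few kinds of sequence are shown because the results turn on them, all from the array design in the deposited files and read in the direction of the mRNA, with positions on mm9. The first is the stem-loop itself, in capitals, with the bases around it, in H3 and H2B probes that end within a few bases of it:
Hist1h3a (chr13:23853756-23853815): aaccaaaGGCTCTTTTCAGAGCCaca
Hist1h3g (chr13:23627719-23627778): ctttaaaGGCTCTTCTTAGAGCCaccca
Hist1h3i (chr13:21874784-21874843): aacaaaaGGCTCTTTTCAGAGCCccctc
Hist2h2bb (chr3:96074056-96074115): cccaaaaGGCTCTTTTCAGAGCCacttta
In these 4 probes 3, 5, 5 and 6 bases followed the loop. The Hist2h2aa1 probe instead ran 38 bases past it, of which the first 8 are printed:
Hist2h2aa1 (chr3:96049949-96050008): taaaaaGGCTCTTTTCAGAGCCacccactg
The second kind is a match to the signal for adding a poly(A) tail, in capitals, in 3 probes far along the transcript:
Hist1h2be (chr13:23675610-23675669): gtactgttcattATTAAAgcattcctgatt
Hist1h4i, probe from base 484 (chr13:22132679-22132738): ccgagtgttgggATTAAAggcgtgcgccac
Hist3h2ba (chr11:58762964-58763023): gttcataatggtattAATAAAtttggttca
These hexamers are matches of letters and were not shown to be used sites. Whether the bases around them are repeated elsewhere in the genome was not checked.

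The third kind shows why single H2A genes cannot be separated with certainty. The probes for the last coding bases of 4 H2A genes were nearly the same, and capitals mark each base that differs from the Hist1h2an probe:
Hist1h2an (chr13:21878695-21878754): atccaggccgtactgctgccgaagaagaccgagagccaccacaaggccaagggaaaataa
Hist1h2af (chr13:23626113-23626172): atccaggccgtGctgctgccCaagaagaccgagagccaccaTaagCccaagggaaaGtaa
Hist1h2ak, probe from base 334 (chr13:21845304-21845363): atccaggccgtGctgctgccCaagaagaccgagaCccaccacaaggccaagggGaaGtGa
Hist2h2aa2 (chr3:96049837-96049896): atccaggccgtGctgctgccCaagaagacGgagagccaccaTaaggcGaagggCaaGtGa
They differed from Hist1h2an at 5, 6 and 8 of 60 bases, so each probe may also catch mRNA of the others. Probes that were 85% identical or more over their whole overlap, laid together without gaps over at least 40 bases, formed 2 sets. One held these 4 together with Hist1h2ag and Hist1h2ah, and the other held Hist1h4c, Hist1h4d, Hist1h4j and the Hist1h4k probe from base 37. The other 42 probes were in no set, which does not show that each is specific to its gene. Histone probes were compared only with each other, not with other transcripts or repeated sequence. Hist2h2ac, for example, is in no set but shares a long run of bases with Hist1h2ah. Values of a single gene within a set are therefore uncertain as to the gene.

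On all 24 arrays 67.0 to 77.0% of spots were well above background, and no spot was saturated. The value given for a probe is its scaled log2 signal, the log2 of the background-subtracted intensity minus the log2 of that array's 75th percentile, and it has no meaning between probes. Testing was limited to probes above background in every array of some group, namely 42319 of 55681 probes and 50 of 52 histone probes. Of the others, Hist1h1d was above background on no array and Hist3h2bb-ps, a pseudogene, on 5. Of those tested, 48 were above background on all 24 arrays, Hist1h2al on 22 and Hist2h2ab on 6. A probe passed where limma's Benjamini-Hochberg adjusted p over all tested probes was below 0.05. The arrays lay on 3 slides of 8, and all unirradiated and 300 cGy B10.BR arrays shared 1 slide. By contrast, the BALB.K 400 and 800 cGy arrays and the B10.BR 900 cGy arrays shared no slide with their unirradiated groups. Ddx3y, a Y-linked gene, was above background on every B10.BR array and all 3 BALB.K 800 cGy arrays, but on only 1 of 3 in each other BALB.K group. Sex was therefore not balanced with dose in BALB.K, nor between the strains. Nothing in the labels says that the pools were independent irradiations, so a p here measures the spread between pools.

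Most clustered histone probes were lower after irradiation in both strains at every dose, while a minority rose, more of them at the higher doses. In BALB.K at 300 cGy 34 of 50 histone probes fell and 4 rose, against 23.3% and 19.1% of all tested probes. At 400 cGy 33 fell and 7 rose, where 24.1% of all probes fell and 24.1% rose. At 800 cGy 30 fell and 14 rose, beside 27.1% and 28.6% of all probes. The B10.BR counts were 30 lower and 3 higher at 300 cGy (21.3% and 17.1% of all probes), 31 and 9 at 500 cGy (24.6% and 20.6%), and 30 and 10 at 900 cGy (26.6% and 24.4%). The histone counts were thus above the background share for falls and below or near it for rises. In either direction, the 6 comparisons called 42.4, 48.2, 55.8, 38.4, 45.2 and 51% of all tested probes. The median histone change was -1.32, -1.36 and -1.34 on the log2 scale in BALB.K and -0.88, -1.10 and -1.10 in B10.BR, in order of dose, while the median of all probes lay between -0.11 and 0.10. Hist2h2ab entered these counts only because it was above background without irradiation; with the 48 probes measured on every array the counts at the highest doses were 29 lower and 14 higher in BALB.K and 29 lower and 10 higher in B10.BR.

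At the highest doses, 29 of the 50 probes (58.0%) fell in both strains and 10 (20.0%) rose in both, where 20.2% of all tested probes fell in both and 19.0% rose in both. No histone probe passed in opposite directions, as 0.768% of all probes did. These 2 comparisons have no array in common, and the overlap itself was not tested. Hist2h3c2-ps was the single histone probe with a rise in each of the 6 irradiated groups, and its calls at 300 cGy were weak in both strains. Rises at the lower doses depended on the setting: in BALB.K the 4 at 300 cGy were 0 and the 7 at 400 cGy were 3 when only the arrays compared were fitted. Among the BALB.K arrays without Ddx3y signal, 33 probes fell and 3 rose at 300 cGy and 31 fell and 5 rose at 400 cGy. At 800 cGy, where all arrays had that signal, only 1 unirradiated array could serve as a control with it, so sex and dose were not separated there. Scaling on the spike-in controls changed the split at 300 cGy in B10.BR to 23 lower and 8 higher. The median of all probes at that dose was then 0.28, against -0.07 in the percentile scaling, and 86.1% of all probes that passed were higher, against 44.4%. No probe named below that passed against 0 cGy changed direction under another scaling.

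**Figure D1:**
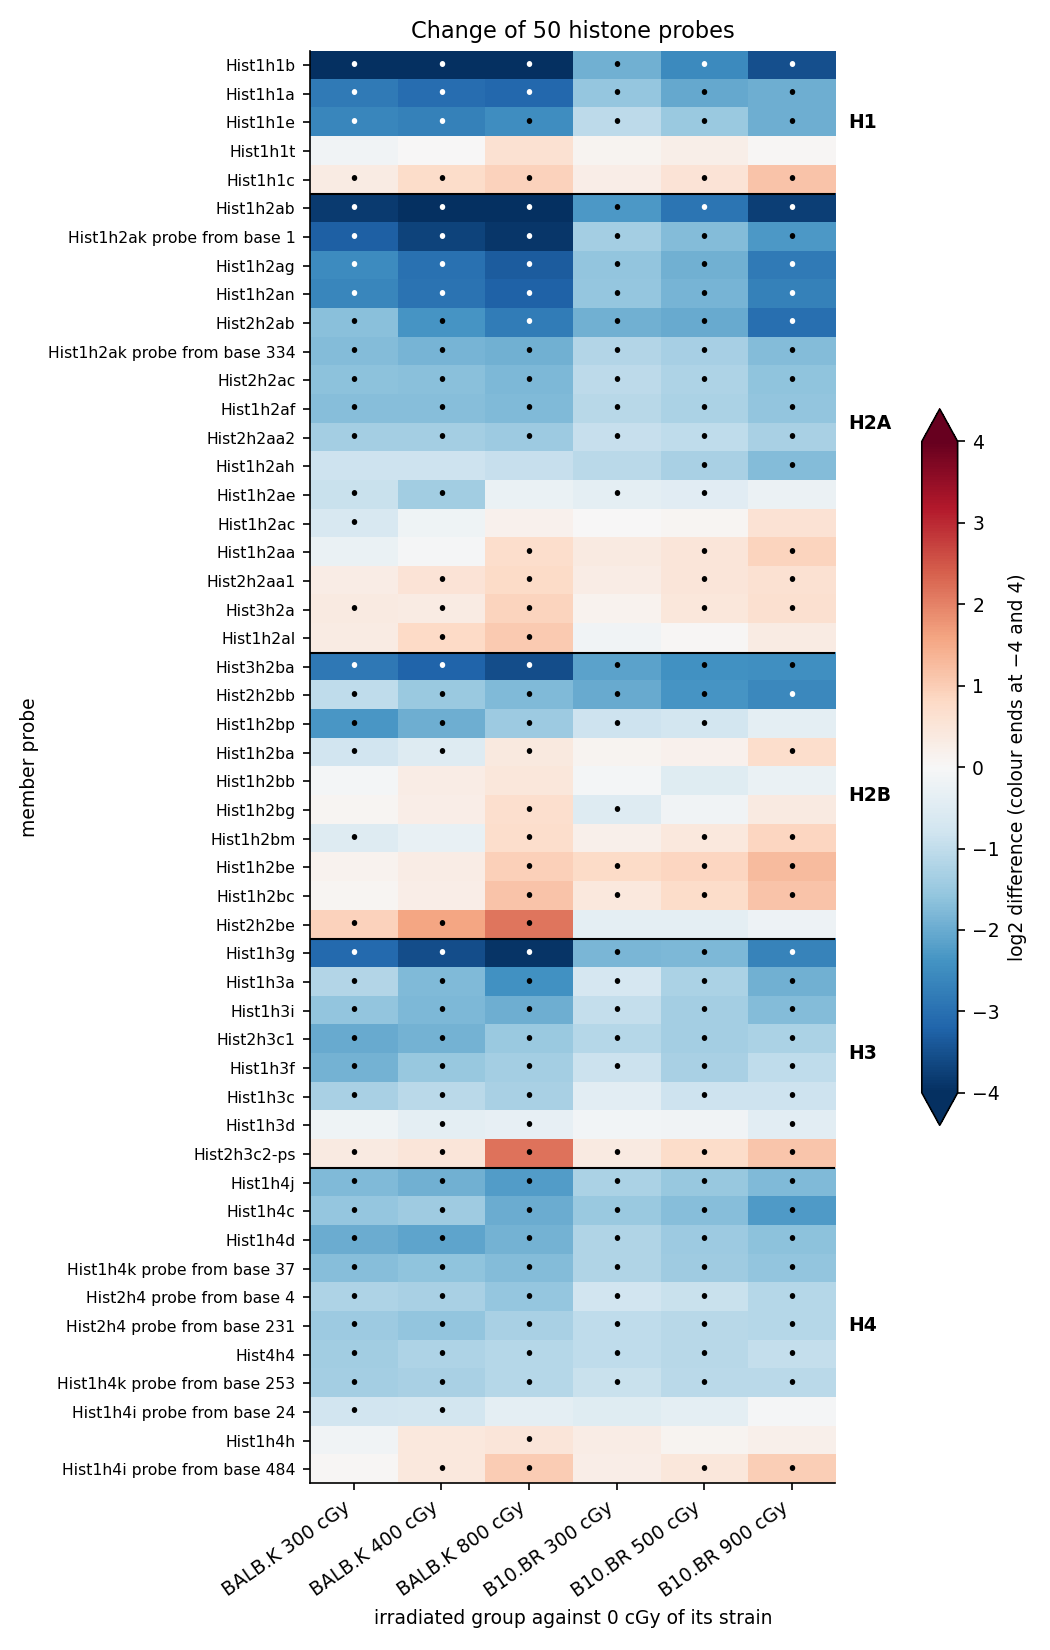
Log2 change against 0 cGy of the 50 tested histone probes (rows, grouped by histone type) in the 6 irradiated groups (columns), with colour from -4 (lower) to 4 (higher) and a dot where the adjusted p was below 0.05. Most rows are lower in every column and the rows that are higher gain colour toward 800 and 900 cGy.

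Linker histones, which bind the DNA between nucleosomes, held both the largest fall of all members in BALB.K and a gene that rose. In B10.BR the largest fall was that of Hist1h2ab, an H2A. Hist1h1b (RefSeq symbol H1f5; probe at chr13:21871923-21871982, minus strand) read 2.38, 2.18 and 1.86 on the unirradiated BALB.K arrays. It read -2.42, -2.09 and -1.74 at 300 cGy, -2.48, -2.93 and -2.69 at 400 cGy, and -3.56, -3.42 and -3.29 at 800 cGy. In B10.BR it read 0.81, 0.88 and 0.98 without irradiation, -0.95, -1.07 and -1.08 at 300 cGy, -2.08, -1.47 and -1.45 at 500 cGy, and -2.76, -2.27 and -2.89 at 900 cGy. All irradiated arrays of each strain lay below all of its unirradiated ones, and in BALB.K the 800 cGy arrays lay below those at 300 and 400 cGy. The change in BALB.K was -4.22 at 300 cGy (SE 0.20, limma adjusted p 1.289e-11), an 18.7-fold fall, and -5.56 at 800 cGy (adjusted p 1.781e-13), a 47.3-fold fall. In B10.BR it was -1.92 at 300 cGy (adjusted p 5.889e-07) and -3.53 at 900 cGy (adjusted p 7.224e-11), an 11.5-fold fall. The single BALB.K 300 cGy array on the slide of the unirradiated arrays, at -2.42, was the lowest of its 3.

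Hist1h1a and Hist1h1e, also replication-dependent linker histones, fell in all 6 groups. Hist1h1a changed by -3.13 at 800 cGy and -1.96 at 900 cGy, and Hist1h1e by -2.48 and -1.96. Hist1h1c (H1f2) is a linker histone also known to give a polyadenylated mRNA in resting cells. It read 2.97, 3.12 and 3.04 in unirradiated BALB.K spleen and 3.90, 3.99 and 4.02 at 800 cGy. In B10.BR it read 3.61, 3.51 and 3.59 without irradiation and 5.06, 4.59 and 4.47 at 900 cGy. The groups did not overlap in either strain, and the rise was 0.92 at 800 cGy (SE 0.12, limma adjusted p 2.599e-06; 1.90-fold) and 1.14 at 900 cGy (adjusted p 2.22e-07; 2.20-fold). At 300 cGy its change was 0.33 in BALB.K (adjusted p 0.03189), which no longer passed when unirradiated array 1 or 3 or any 300 cGy array was left out (0.30 to 0.34), and 0.28 in B10.BR (adjusted p 0.07491). Hist1h1t, known as a testis linker histone, passed in no group against 0 cGy, with values from -0.15 to 0.60. The Hist1h1c probe starts at base 1343 of its transcript, past the coding region, and the Hist1h1b probe at base 442, within it.

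**Figure D2:**
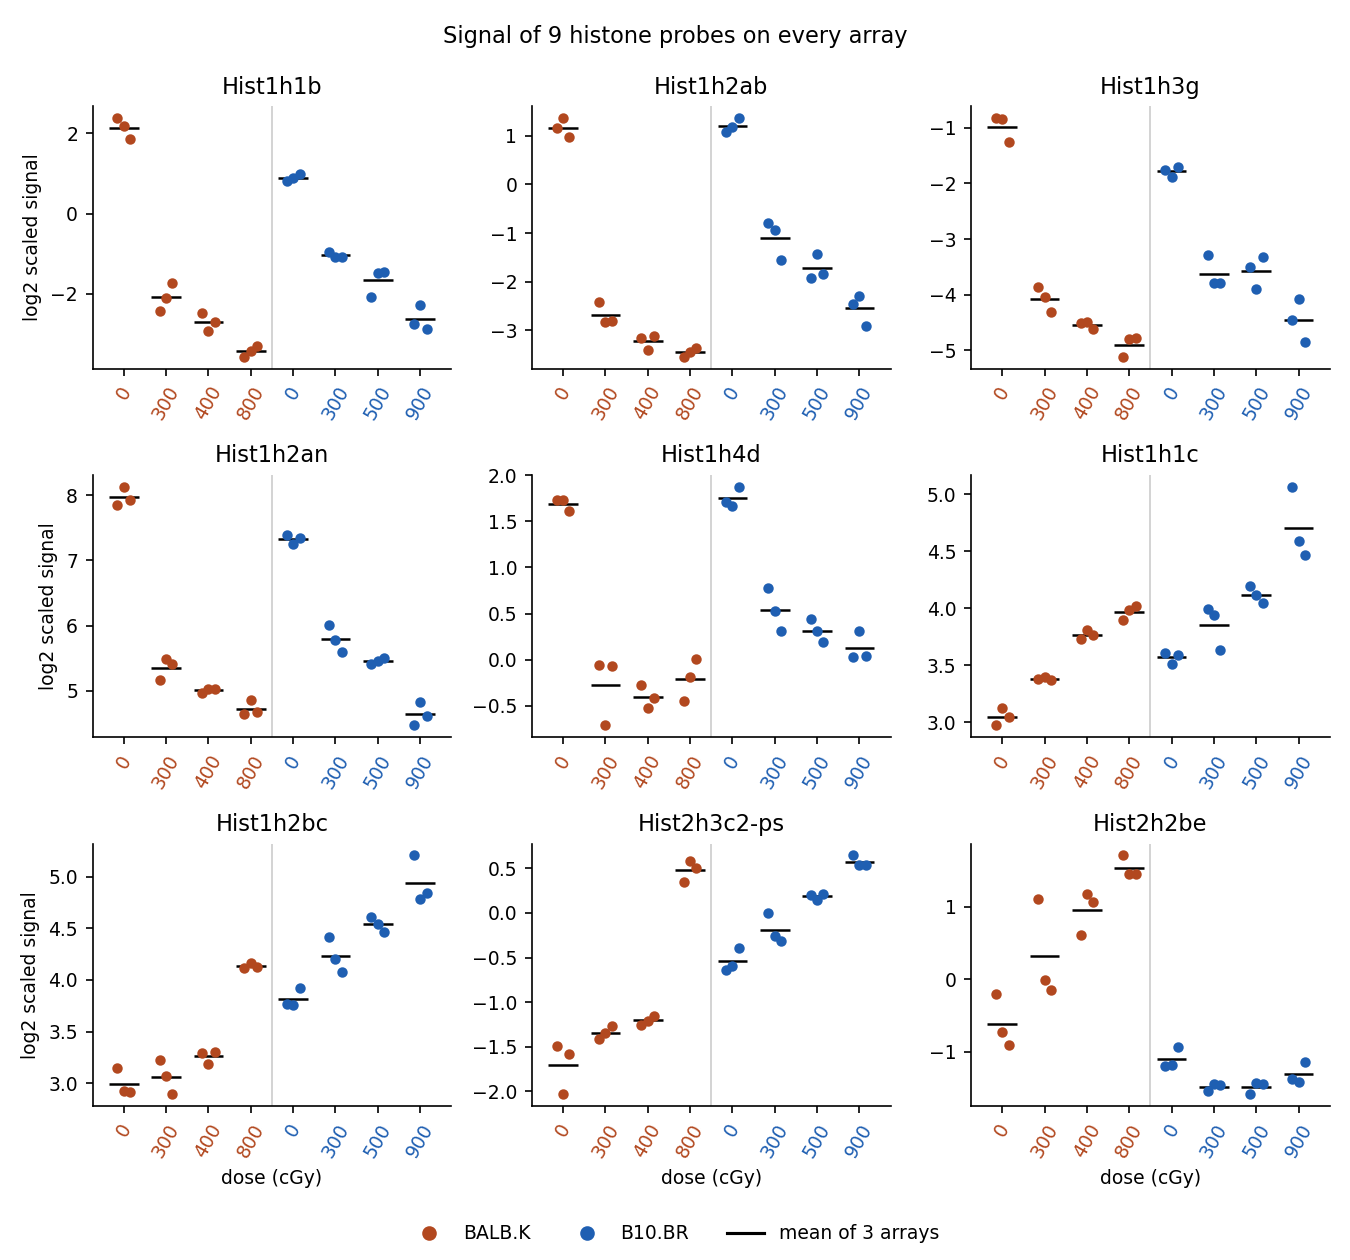
Scaled log2 signal (log2 of signal over the array's 75th percentile) of 9 histone probes on each of the 24 arrays, by strain and dose in cGy, with a line at each group mean of 3 arrays. Hist1h1b steps down with dose in both strains, Hist1h1c and Hist1h2bc step up, and Hist2h2be rises in BALB.K while staying at -1.58 to -0.93 in B10.BR.

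Of the 16 probes for H2A, a core histone, 9 fell and 4 rose at 800 cGy in BALB.K, and 10 fell and 3 rose at 900 cGy in B10.BR. The largest fall was that of Hist1h2ab, whose probe stops inside the stem-loop. It read 1.15, 1.36 and 0.97 in unirradiated BALB.K spleen and -3.54, -3.45 and -3.36 at 800 cGy, a change of -4.61 (SE 0.20, limma adjusted p 1.178e-12; 24.4-fold lower). In B10.BR it read 1.09, 1.17 and 1.36 without irradiation and -2.45, -2.29 and -2.90 at 900 cGy, a change of -3.76 (adjusted p 2.452e-11; 13.5-fold lower). The unirradiated levels of the 2 strains overlapped, and the irradiated ones were apart from them in both. Hist1h2ak has 2 probes: the one from base 1 changed by -3.89 at 800 cGy and -2.30 at 900 cGy, and the one from base 334, printed above, by -1.93 and -1.74. Both fell in all 6 groups, by unequal amounts, and the second is in the set of near-identical probes.

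In that H2A set, Hist1h2an changed by -3.24 at 800 cGy and -2.69 at 900 cGy, and Hist1h2ag by -3.33 and -2.83. The probes of Hist1h2af and Hist2h2aa2 fell less, by 1.77 and 1.45 at 800 cGy on the log2 scale. Hist1h2ah turned on 1 array. It read 8.21, 5.34 and 8.43 on the unirradiated BALB.K arrays, where the second stood apart, and 6.27, 6.49 and 6.46 at 800 cGy. Its changes in BALB.K, -0.82, -0.84 and -0.92 by dose, did not pass, and without that array they were -1.82, -1.84 and -1.91 (limma adjusted p 2.972e-09, 1.897e-09 and 6.541e-10). In B10.BR it fell at 500 and 900 cGy, by 1.31 and 1.74, calls lost in 9 and 2 of 20 other settings.

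Hist2h2ab was not well above background in any irradiated group, so its fall is a bound, computed against the lowest signal above background. It was at least 2.64-, 2.88- and 2.75-fold lower at 300, 400 and 800 cGy in BALB.K, and at least 1.70-, 1.92- and 2.33-fold lower at 300, 500 and 900 cGy in B10.BR. With slide as a term in the fit the BALB.K values no longer passed. Against these falls, Hist2h2aa1, whose probe holds the whole stem-loop and runs past it, read 2.56, 2.92 and 2.54 without irradiation and 3.30, 3.54 and 3.45 at 800 cGy. Its rise was 0.76 there (limma adjusted p 3.542e-05) and 0.62 at 900 cGy (adjusted p 0.0002996). The array design places the Hist2h2aa2 probe, which fell, just before this one on the same strand. RefSeq has Hist2h2aa2 on the minus strand and Hist2h2aa1 on the plus strand, so which gene that probe reads is uncertain. The Hist1h2ae probe, which starts inside the stem-loop and also runs past it, did not rise. In BALB.K it fell at 300 and 400 cGy, with -0.89 and -1.38. In B10.BR it fell at 300 and 500 cGy, with -0.39 and -0.46, calls lost in 10 and 3 of 20 other settings. It did not pass at 800 cGy (-0.28) or 900 cGy (-0.22). Hist3h2a rose by 0.88 and 0.63 at these doses. Hist1h2aa, known as an H2A of the testis, rose by 0.71 and 0.89, and Hist1h2al by 1.05 in BALB.K only as a call, with 0.33 in B10.BR; without the first unirradiated BALB.K array the Hist1h2al value was 0.74 and did not pass.

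H2B, the partner of H2A in the nucleosome, was the type with more rises than falls at the highest doses. At 800 cGy 6 of 10 tested probes rose and 3 fell, with a median change of 0.57, while the medians of H1, H2A, H3 and H4 were -2.48, -1.61, -1.42 and -1.31. At 900 cGy 4 rose and 2 fell, with a median of 0.08, beside -1.96, -1.59, -1.15 and -1.14 for the other types. Most tested H2B probes start late in the transcript, by the division given below, and few probes of the other types do. Histone type and probe start were thus not separated in these medians. Hist1h2bc read 3.15, 2.92 and 2.92 without irradiation in BALB.K and 4.11, 4.16 and 4.13 at 800 cGy, and in B10.BR 3.77, 3.76 and 3.92 without and 5.20, 4.78 and 4.84 at 900 cGy. The groups did not overlap, and the rises were 1.14 (limma adjusted p 1.233e-07) and 1.13 (adjusted p 1.559e-07). Hist1h2be, with the poly(A) hexamer shown above, rose by 0.96 and 1.27.

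Hist2h2be, another H2B gene, rose in BALB.K at every dose and passed at none in B10.BR. In BALB.K it read -0.21, -0.72 and -0.91 without irradiation, 1.10, -0.01 and -0.14 at 300 cGy, 0.61, 1.18 and 1.07 at 400 cGy, and 1.71, 1.45 and 1.45 at 800 cGy. In B10.BR every array lay between -1.58 and -0.93. The BALB.K rise was 0.93 at 300 cGy (SE 0.24, limma adjusted p 0.004783) and 2.15 at 800 cGy (adjusted p 4.698e-07; 4.44-fold), and the B10.BR changes were -0.38 at 300 cGy (adjusted p 0.2459) and -0.21 at 900 cGy (adjusted p 0.5085). Array 1 at 300 cGy stood above the others of its group in BALB.K, and without it the rise at that dose was 0.53 (adjusted p 0.02816).

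Falls among H2B were led by Hist3h2ba, which carries a poly(A) hexamer and starts late in its transcript but fell in all 6 groups. It read 2.02, 1.79 and 1.56 in unirradiated BALB.K spleen and -1.66, -1.77 and -1.88 at 800 cGy. That change of -3.56 (SE 0.19, limma adjusted p 1.571e-11) was an 11.8-fold fall, and the change at 900 cGy was -2.45. Hist2h2bb, with the stem-loop at its end, changed by -1.77 at 800 cGy and -2.58 at 900 cGy. In BALB.K its calls were lost with slide as a term, where the values were -0.50, -0.74 and -1.01 by dose. Hist1h2bp fell in BALB.K at every dose, by 2.34 at 300 cGy and 1.46 at 800 cGy. In B10.BR it fell by 0.83 at 300 cGy and 0.73 at 500 cGy, and its value at 900 cGy was -0.40 (limma adjusted p 0.06422).

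A pair of H2B probes, Hist1h2ba and Hist1h2bm, fell in BALB.K at 300 cGy and rose at 800 cGy. Hist1h2ba, known as the testis H2B, read 1.45, 1.08 and 0.84 without irradiation, 0.39, 0.24 and 0.46 at 300 cGy and 1.57, 1.52 and 1.43 at 800 cGy. The 300 cGy arrays lay below the unirradiated ones, whose highest array was inside the range at 800 cGy. The changes were -0.76 and 0.38, and for Hist1h2bm -0.52 and 0.71. Single arrays decided some of these calls. Without unirradiated array 3 the Hist1h2ba value at 800 cGy was 0.24, and without unirradiated array 1 the Hist1h2bm value at 300 cGy was -0.28, and neither passed. Set against the single unirradiated BALB.K array with Ddx3y signal, a comparison added after seeing the data, the values at 800 cGy were 0.05 for Hist1h2ba and 0.23 for Hist1h2bm. That array was the highest unirradiated one for both probes, and 1 control array gives no spread of its own. At 900 cGy in B10.BR they rose by 0.70 and 0.87.

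H3 carries the tail that many chromatin marks sit on, and 7 of its 8 probes fell at 800 and at 900 cGy. The one exception, Hist2h3c2-ps, is annotated as a pseudogene in the array's naming and as H3c15 in RefSeq. Hist1h3g, the probe with the altered loop letters shown above, read -0.83, -0.85 and -1.26 in unirradiated BALB.K spleen and -5.11, -4.80 and -4.78 at 800 cGy. Its change was -3.92 (SE 0.20, limma adjusted p 9.55e-12; 15.1-fold lower), and -2.68 at 900 cGy. Hist1h3a changed by -2.41 and -1.92 and Hist1h3i by -1.95 and -1.72, so the 3 H3 probes that end at the stem-loop all fell. Hist1h3d changed little, with -0.34 at 800 cGy, a call lost when any 1 of 4 arrays was left out (unirradiated arrays 2 and 3, 800 cGy arrays 1 and 3) and when the signals were scaled on the spike-in controls (-0.06).

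Hist2h3c2-ps moved the other way. It read -1.50, -2.03 and -1.59 in unirradiated BALB.K spleen, -1.42, -1.34 and -1.27 at 300 cGy, -1.25, -1.21 and -1.16 at 400 cGy, and 0.35, 0.58 and 0.50 at 800 cGy. In B10.BR it read -0.64, -0.60 and -0.40 without irradiation, 0.00, -0.26 and -0.32 at 300 cGy, and 0.64, 0.54 and 0.54 at 900 cGy. The 800 cGy arrays stood well above those at the 3 lower doses. The rise was 2.18 at 800 cGy (SE 0.12, limma adjusted p 2.931e-11; 4.54-fold) and 1.12 at 900 cGy (adjusted p 2.353e-07; 2.17-fold). At 300 cGy in BALB.K it was 0.36, and 0.20 without unirradiated array 2 and 0.32 without 300 cGy array 3, neither of which passed. At 300 cGy in B10.BR it was 0.35, a call lost in 6 of 20 other settings (highest adjusted p 0.221). Its probe starts at base 958, far past the coding part of an H3 mRNA, and ends in a run of A.

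H4, the most conserved core histone, had 11 probes, of which 8 fell and 2 rose at 800 cGy and 8 fell and 1 rose at 900 cGy. Hist1h4d read 1.73, 1.74 and 1.61 in unirradiated BALB.K spleen and -0.45, -0.19 and 0.01 at 800 cGy, a change of -1.90 (SE 0.16, limma adjusted p 1.262e-08). The change at 900 cGy was -1.63. Hist1h4j changed by -2.23 and -1.77 and Hist1h4c by -2.00 and -2.27. The other H4 probes that fell at 800 cGy did so by between 1.13 and 1.74 on the log2 scale, and Hist4h4 was among them at -1.15. Hist1h4h rose by 0.49 at 800 cGy, a call lost when any 1 of 5 arrays was left out (unirradiated arrays 1 and 3 and each 800 cGy array).

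The 2 probes of Hist1h4i went apart. The one from base 24, within the coding part, read -1.04, -1.83 and -1.77 in unirradiated BALB.K spleen and -2.13, -2.39 and -2.47 at 300 cGy. It fell there by 0.78 (limma adjusted p 0.003246), and its value was -0.38 at 800 cGy and -0.06 at 900 cGy. The one from base 484, with the hexamer, read -2.11, -1.66 and -1.99 without irradiation and -1.17, -0.79 and -0.74 at 800 cGy. It rose by 1.02 (limma adjusted p 4.509e-05) and, in B10.BR at 900 cGy, by 0.97 (adjusted p 8.397e-05). At 400 cGy in BALB.K the probe from base 24 fell, with -0.74, and the one from base 484 rose, with 0.43, a call lost in 12 of 21 other settings (highest adjusted p 0.5759). Without unirradiated array 1 the values of the probe from base 24 were -0.53 at 300 cGy and -0.49 at 400 cGy, and both passed. No test of the difference between probes of a gene was made. Whether the probe from base 484 also matches RNA of other genes was not checked.

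The rises were mostly at probes that start far along the transcript. With values known, the probes were divided at base 480 of the transcript, or base 1000 for the longer H1 mRNAs, which put 13 tested probes late and 37 early. The nearest on the late side start at bases 484 and 489, and the nearest on the early side at 441 and 436, or 662 and 664 for H1. Of the late probes 9 rose and 2 fell at 800 cGy, with a median change of 0.88, and 7 rose and 1 fell at 900 cGy, with a median of 0.62. Of the early probes 5 rose and 28 fell at 800 cGy, with a median of -1.74, and 3 rose and 29 fell at 900 cGy, with a median of -1.59. The near-identical sets hold early probes only. Without those sets 27 early probes were left, of which 5 rose and 19 fell at 800 cGy, with a median of -1.37. At 900 cGy 3 of them rose and 19 fell, with a median of -1.14. At 300 cGy no early probe rose in either strain, while 4 late probes rose and 4 fell in BALB.K and 3 rose and 4 fell in B10.BR. The division was chosen on these values and is no test. Most tested H2B probes were on the late side and most of every other type on the early side, so probe start and type were not separated. With slide as a term, 1 early probe rose at 800 cGy in place of 5, and 8 late probes rose. The late probes that fell somewhere were Hist3h2ba in all groups, and Hist1h2bp, Hist1h2ae, Hist1h2ac or Hist1h2bg at 1 or more doses. The single fall of Hist1h2ac was lost in 15 of 21 other settings and that of Hist1h2bg in 12 of 20. The early probes that rose at a highest dose were Hist1h2aa, Hist1h2al, Hist1h2ba, Hist1h2bm and Hist1h4h.

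**Figure D3:**
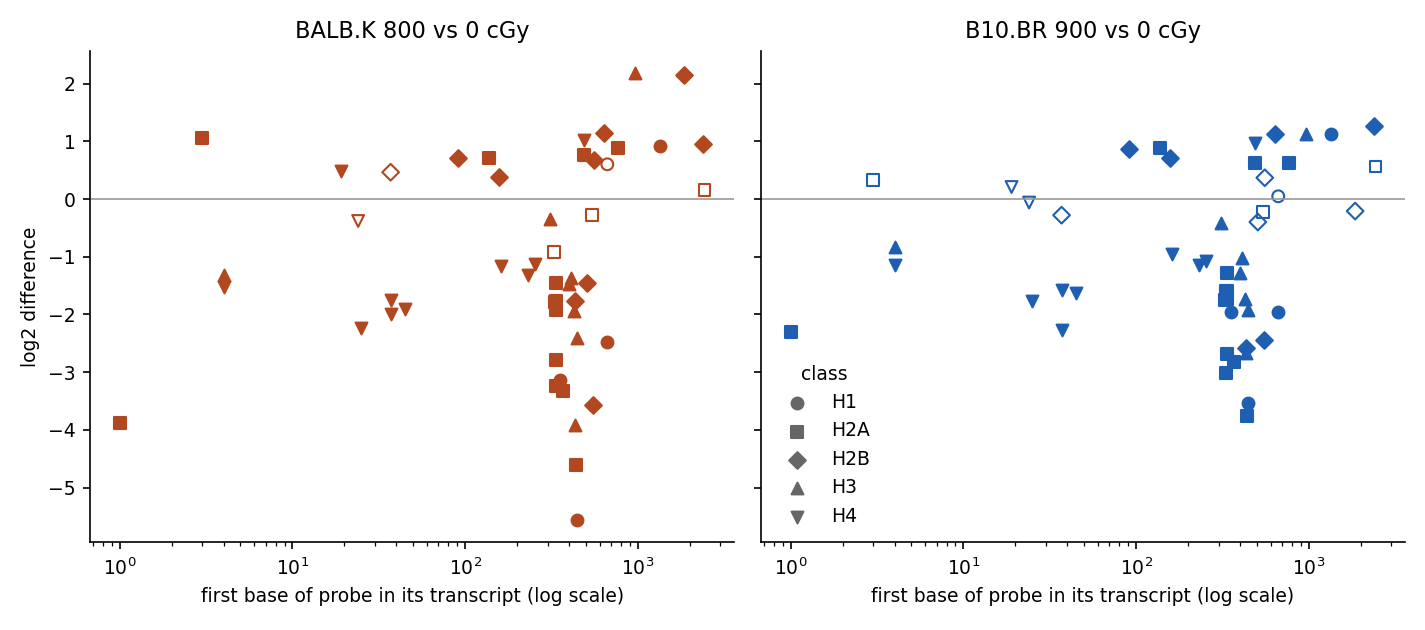
Log2 change against 0 cGy (vertical axis) of the 50 histone probes against the first base of the probe in its transcript (horizontal log axis), at 800 cGy in BALB.K and 900 cGy in B10.BR, with marker shape by histone type and filled markers where the probe passed. Late probes lie mostly above 0 and early ones mostly below it, with Hist3h2ba low among the late ones.

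Between the lowest and the highest irradiation dose, late and early probes separated further. From 300 to 800 cGy in BALB.K 18 histone probes rose and 9 fell, where 20.6% of all probes rose and 14.1% fell, or 34.6% together. Of the 13 late probes 12 rose and 1 fell, and of the 37 early ones 6 rose and 8 fell. From 300 to 900 cGy in B10.BR 10 rose and 15 fell, where 10.3% and 9.22% of all probes did, or 19.5% together, and 7 late probes rose with none falling. The late probe that fell in BALB.K was Hist3h2ba, with -0.72. The largest step up was that of Hist2h3c2-ps, 1.82 in BALB.K, and the largest step down was that of Hist1h1b, -1.34 in BALB.K and -1.60 in B10.BR. The BALB.K split depended on the scaling: it was 25 higher and 2 lower with spike-in scaling and 9 higher and 19 lower with median scaling, where 6 of the late probes rose. With slide as a term 3 late probes rose from 300 to 900 cGy.

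Without irradiation the strains differed in 25 of the 50 probes, close to the 51% of all tested probes that differed. Of these 8 were higher in B10.BR and 17 lower, where 21.6% and 29.3% of all probes were. Higher in B10.BR were Hist1h2ac by 1.26, Hist2h3c2-ps by 1.16, Hist1h2bc by 0.82 and Hist3h2a by 0.68. Lower were Hist1h2bp, with -1.32, Hist1h1b with -1.25, Hist1h2al with -1.16 and Hist1h3c with -1.09. The split was 15 higher and 8 lower with median scaling and 1 higher and 36 lower with spike-in scaling, under which the median of all probes was -0.82 against -0.11. All unirradiated B10.BR arrays were on 1 slide and all unirradiated BALB.K arrays on another, so strain and slide cannot be told apart from these arrays. Ddx3y signal was on every B10.BR array but only some BALB.K ones, so strain and sex were not separated either. With slide as a term, estimated through the other groups, 5 were higher and 5 lower. Hist3h2a was at -0.03 with spike-in scaling.

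At 300 cGy, the dose both strains received, the changes of many histone probes differed between the strains. The difference of the 2 changes passed for 20 histone probes, of which 19 were higher in B10.BR and 1 lower, beside 5.08% and 4.57% of all tested probes, or 9.65% together. The difference was 2.30 for Hist1h1b (SE 0.28, limma adjusted p 9.246e-05), 1.93 for the Hist1h2ak probe from base 1 (adjusted p 0.0001103), 1.58 for Hist1h1e (adjusted p 0.01477) and 1.54 for Hist1h2ab (adjusted p 0.002024). Each of these fell in both strains, and the fall was the smaller one in B10.BR. For Hist2h2be it was -1.31 (adjusted p 0.02264), the single call in the other direction, and leaving out unirradiated BALB.K array 2 or 3 or unirradiated B10.BR array 3 ended that call (adjusted p 0.05322, 0.05708 and 0.06395). Without BALB.K 300 cGy array 1 it was -0.91 and passed. Hist1h1b and Hist1h2ab kept the call with slide as a term, and Hist1h1e, at 1.18, did not. Only 11 probes passed with median scaling, and 8 when the fit held no other arrays. Strain and sex were not separated here, since Ddx3y signal was on every B10.BR array but only some of the BALB.K ones compared. No setting for Ddx3y signal was run on this difference.

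**Figure D4:**
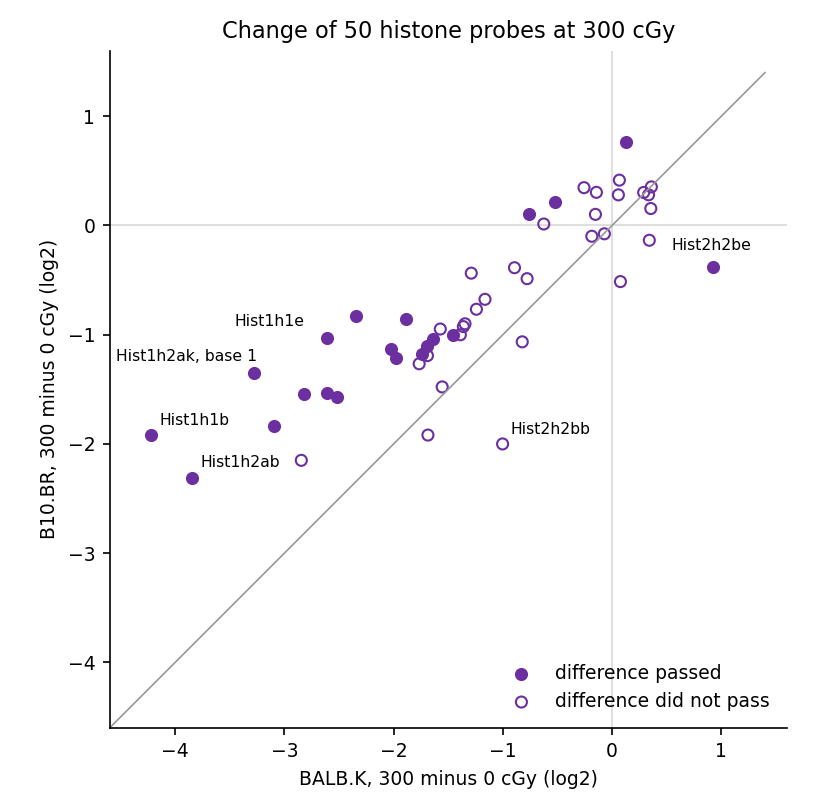
Log2 change at 300 cGy of the 50 histone probes in BALB.K (horizontal axis) and B10.BR (vertical axis), with the line of equal change, filled points where the difference between strains passed. Most points with a fall lie above the line, with Hist1h1b and Hist1h2ak farthest, and Hist2h2be lies below it.

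Promoters of this family are short and share a few known elements, and they are shown for a linker histone that fell and one that rose. RefSeq promoter windows on GRCm38.p6 were matched for 42 starts of member genes, and the 150 bases before the start are printed with matched motifs in capitals. The motifs searched, on both strands and over windows of 300 bases, were the octamer (ATTTGCAT), known from H2B promoters, and the general CCAAT element. The TATA element was searched as TATAAA. The H1 box, an element known from linker histone promoters, was searched as AAACACA.
Hist1h1b (chr13:21780626-21780775, minus strand): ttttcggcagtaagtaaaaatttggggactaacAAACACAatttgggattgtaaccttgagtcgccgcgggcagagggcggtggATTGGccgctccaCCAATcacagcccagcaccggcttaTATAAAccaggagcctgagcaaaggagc
Hist1h1c (chr13:23738657-23738806, plus strand): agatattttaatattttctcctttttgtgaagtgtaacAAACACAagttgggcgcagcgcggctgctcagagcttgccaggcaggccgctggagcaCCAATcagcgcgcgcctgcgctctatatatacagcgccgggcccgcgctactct
Both hold the H1 box and CCAAT, and the TATA element was matched in the first alone. The H1 box was found in 5 of 6 H1 windows, and in 21.4% of member windows against 7.18% of all 32851 promoter windows. The octamer was found in 7 of 14 H2A and 6 of 9 H2B windows and in none of H1, H3 or H4, or 31.0% of member windows against 1.735% of all. The CCAAT element stood in 88.1% of member windows against 37.4% of all, and the TATA element in 59.5% against 13.6%. These are matches of letters, and no factor's binding was measured.

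H2A and H2B genes often lie head to head with a shared promoter, and 3 such pairs were found among members with a matched promoter window. Members without a window, Hist2h2be among them, were not searched for a partner. Hist1h2an and Hist1h2bp start 240 bases apart. They changed by -2.61 and -2.34 at 300 cGy and by -3.24 and -1.46 at 800 cGy in BALB.K, where both passed. At 900 cGy in B10.BR they were at -2.69, which passed, and -0.40, which did not. Hist1h2ba and Hist1h2aa start 281 bases apart. They stood at -0.76, which passed, and -0.26, which did not, at 300 cGy in BALB.K, and rose by 0.38 and 0.71 at 800 cGy and by 0.70 and 0.89 at 900 cGy. Hist1h2ae and Hist1h2bg start 180 bases apart. They stood at -0.89, which passed, and 0.08, which did not, at 300 cGy in BALB.K. At 800 cGy they were at -0.28, which did not pass, and 0.68, which did, and at 900 cGy at -0.22 and 0.37, neither of which passed. Members of these pairs thus passed together at some doses and apart at others. The pairs are given as values side by side, with no test of likeness.

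Most tested genes known to act on clustered histones were lower too. For every list below, 27.1% of all tested probes fell at 800 cGy and 26.6% at 900 cGy, while 28.6% and 24.4% rose. Of 9 tested genes for activation of histone transcription, 8 fell and none rose at 800 and at 900 cGy; Npat itself was not tested, being too dim. Ccne1, the cyclin E that turns on NPAT, changed by -4.08 at 800 cGy and -2.56 at 900 cGy, and the S-phase regulator E2f1 by -1.54 and -0.61. Of 17 tested genes for the processing and decay of stem-loop mRNA, 11 fell and 2 rose at 800 cGy, and 13 fell and 1 rose at 900 cGy. Slbp, whose protein binds the stem-loop, changed by -1.92 at 300 cGy and -2.24 at 800 cGy in BALB.K, and by -0.73 at 300 cGy and -1.22 at 900 cGy in B10.BR. Eri1, an exonuclease that trims the loop, changed by -1.72 at 800 cGy, and Zcchc11, which adds uridines to histone mRNA, by -1.56. Lsm10, a subunit of the processing particle, rose by 0.42 there.

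Among 20 tested histone chaperones, 16 fell and 2 rose at 800 cGy and 13 fell and 1 rose at 900 cGy. Chaf1b, a subunit of the factor that loads histones at the replication fork, changed by -3.36 and -2.19, and Asf1b by -2.98 and -2.17. Of 11 tested histone genes outside the clusters, most of them known for polyadenylated mRNAs, 8 fell and 3 rose at both highest doses. H1f0, a linker histone known from resting cells, rose by 1.99 at 800 cGy and 1.85 at 900 cGy, and H2afx, the variant phosphorylated at DNA breaks and known to give a stem-loop mRNA too, changed by -2.52 and -2.00. The direction among these was thus mixed, as it was in the clusters.

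S-phase genes and many cell type markers of the spleen also changed after irradiation, not all in the direction of most histone probes. All 26 S-phase genes fell at 300 and 800 cGy in BALB.K, with medians of -2.05 and -2.49, and in B10.BR 23 fell at 300 cGy and 26 at 900 cGy, with medians of -0.88 and -1.42. Ccna2, the S-phase cyclin, changed by -4.69 at 800 cGy, and Pcna, the clamp of the replication fork, by -2.16. The difference between strains at 300 cGy passed for 25 of the 26, all higher in B10.BR. Summed, S-phase probes made up 0.2105 to 0.2636% of the signal in unirradiated BALB.K spleen and 0.1151 to 0.1399% in B10.BR. Of 16 p53 targets 15 rose at 800 cGy and 13 at 900 cGy, with Cdkn1a, the p21 inhibitor, up by 5.37 and 4.95.

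Markers of B cells fell for 8 of 8 genes at 800 and at 900 cGy, with medians of -3.04 and -2.79. T cell markers fell for 7 of 8 at both, with medians of -1.67 and -2.31. Erythroid markers fell for 10 of 10 at 800 cGy and 9 of 10 at 900 cGy, with medians of -6.00 and -6.82, and macrophage markers rose for 9 of 9, with medians of 2.22 and 2.15. Of 7 neutrophil markers 1 rose and 0 fell at 800 cGy, with a median of 0.18, and 0 rose and 2 fell at 900 cGy, with -0.34. At 300 cGy in B10.BR 5 of them rose, with a median of 1.01. The part of these cell types in the histone values was not tested. Markers of exocrine pancreas, a neighbour of the spleen, were 0.000685 to 0.00283% of the signal in unirradiated B10.BR samples, 0.0446 to 0.5004% at 300 cGy and 0.400 to 0.556% at 900 cGy, and all 16 rose at both doses there. In BALB.K they ranged from 0.00371 to 0.0912% without irradiation and from 0.0231 to 0.688% at 300 cGy, and none of the 16 passed. With their summed level as a covariate the change at 300 cGy differed between strains for 16 histone probes in place of 20, of which 14 were higher in B10.BR, and at 300 cGy in B10.BR 1 rose in place of 3. With it, 37 histone probes passed at 900 cGy, 27 of them lower, and 42 at 800 cGy, 29 of them lower.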

How the data were processed

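Per the file headers, the authors scanned 1-colour (Cy3) arrays and extracted them with Agilent Feature Extraction 10.5.1.1, per the submitters' processing notes. The deposited intensity used is the processed signal, background-subtracted by the scanner software, and a deposited matrix of log2 values by the authors served as an alternative. Probe positions are on mm9, per the file headers. From these, log2 intensity minus each array's 75th percentile was computed. Marked outlier spots were left out. Probes above background on 3 arrays of 1 group were fitted in limma 3.58.1 (R 4.3.3), over all 8 groups, with Benjamini-Hochberg adjustment at 0.05 in each of 10 comparisons. The fit was tested on simulated data, where it recovered 56 of 100 changes of 1 log2 unit and 90 of 100 changes of 2. Of the simulated calls 2.667% were false. A probe that did not pass may thus still have changed. Far fewer probes were changed in the simulation than passed in these data. The number of arrays limits the precision.

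The members and gene lists were chosen with earlier results of these data known, and the division by probe start with the values known. Named probes are, per histone type, those that passed with the largest changes, the strain differences, and genes whose probes differ. Alternatives covered scaling, background correction, filters, left-out arrays, slide, replicate number, pancreas signal, other fits and the deposited matrix.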

Additional observations from a re-analysis of the deposited data

Results flagged for a closer look

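The change at 300 cGy differed between the strains, by an interaction term in limma with Benjamini-Hochberg adjustment, in 20 histone probes. The difference, B10.BR minus BALB.K, was 2.30 for Hist1h1b, 1.93 for the Hist1h2ak probe from base 1, 1.58 for Hist1h1e and 1.54 for Hist1h2ab. For Hist2h2be it was -1.31.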

How the results depend on the processing

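Over 16 kinds of alternative settings and the left-out arrays, 10290 values of single probes were recomputed; of 6803 that concerned a call, 6295 kept it, 503 lost it and 5 reversed. The 5 reversals were all in the strain difference without irradiation under spike-in scaling: Hist1h1c -0.18, Hist3h2a -0.029, Hist2h2aa1 -0.39, Hist1h4c -0.13 and the Hist1h4i probe from base 484 -0.18. The count of probes whose change at 300 cGy differed between strains was 11 with median scaling and 8 when only the arrays compared were fitted. From 300 to 900 cGy in B10.BR it was 10 with spike-in scaling, 15 with only the arrays compared and 11 with slide as a term, and the strain count without irradiation was 10 with slide as a term. The counts of probes that passed against 0 cGy stayed within 1.5 times in the settings run, but the rises among them did not. For example, in BALB.K they were 0, 1 and 2 in place of 4 at 300 cGy with only the arrays compared, spike-in scaling and slide as a term, 3 and 4 in place of 7 at 400 cGy with only the arrays compared and slide as a term, and 9 in place of 14 at 800 cGy with slide as a term. In B10.BR at 300 cGy they were 8 with spike-in scaling and 1 with the pancreas covariate in place of 3, and 1 and 5 without 300 cGy array 1 and 3. In BALB.K they were 2 at 300 cGy without 300 cGy array 1 or 3, and 4 at 400 cGy without unirradiated array 3 or 400 cGy array 1. With single arrays left out all counts of probes that passed ranged over 34 to 37, 36 to 42 and 41 to 46 in BALB.K and 29 to 33, 35 to 38 and 39 to 41 in B10.BR. From 300 to 800 cGy the range was 23 to 25, from 300 to 900 cGy 20 to 25, for the strains without irradiation 22 to 24 and for the strain difference at 300 cGy 14 to 19. The cause of these shifts was not tested. Replicate numbers did not pair the arrays: in no comparison did every pair's deviations correlate above 0.1. With the replicate number as a block 7 calls were lost and 4 gained of 500, and the counts against 0 cGy were 37, 39 and 44 in BALB.K and 32, 39 and 40 in B10.BR. Dim probes limit the rest, since 2 histone probes were not tested and 1 gave only a bound.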
